A study of Mus musculus with 8 samples.

Results

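Actin cytoskeleton and motility genes were examined in neutrophils of KP lung tumors. The 10 genes were Actb, Actg1, Pfn1, Cfl1, Tmsb4x, Tmsb10, Arpc2, Coro1a, Lcp1 and Lsp1, of 27923 genes in the tables. They were chosen by earlier values of these same libraries, namely their unique molecular identifier (UMI) counts in neutrophils and in the other cell classes of the tumor edge and of the whole tumor, so all values of these 10 genes are given as a description without a test. Tests are reported only for a list of other actin genes. A neutrophil was a cell with at least 2 UMIs summed over Csf3r, G0s2, Clec4d and Cxcr2, and 1677 of 3894 cells with at least 200 genes passed this gate.

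Neutrophils crawl by polymerizing actin at the leading edge and pulling the rear forward. Profilin delivers actin monomers to growing filament ends, beta-thymosins hold monomers in reserve, cofilin severs old filaments, and the Arp2/3 complex starts branches. Coronin, plastin and leukocyte-specific protein bind the finished filaments, and in white blood cells they serve migration, phagocytosis and adhesion.

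The KP mice, in which Cre starts lung tumors, carried floxed p53 (p53 fl/fl) among their alleles and were chimeras made from C57BL/6 embryonic stem cells in albino C57BL/6 blastocysts. Adenovirus expressing Cre from the SPC promoter, which is active in alveolar type II cells, was given into the trachea at 12 weeks of age, and tumors were taken 16 weeks later, 1 from each of 2 mice. All 8 libraries therefore share the genotype, the virus and the time, and the immune cells of a chimera can come from either source of cells. In SPACECAT, a caged calcein dye (calcein NVOC) becomes fluorescent where a tissue slice is illuminated, which lets cells of a chosen region be sorted. Each tumor gave 1 Healthy/Tumor Border library of sorted, photoactivated cells and 3 Whole Tumor Seq-Well arrays of cells that were not photoactivated. The arrays are repeat runs on 1 tumor, so p-values below measure only the spread between arrays. The 2 mice were 1 male and 1 female, so tumor, mouse and sex cannot be told apart. The single border library of a tumor has no replicate. Tumor numbers follow the sample labels, while cell names inside the tables carry the other number.

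Some of the genes are close relatives whose reads must be told apart, and their coding sequences (GENCODE vM21 models on GRCm38) are shown to make plain how much they share. Actb and Actg1, the beta- and gamma-actin of all cells, have 1128 coding bases each and are identical at 1000 of them (88.7%). The first 60 bases follow, 5′ to 3′, with the 9 differing bases in capitals.
Actb: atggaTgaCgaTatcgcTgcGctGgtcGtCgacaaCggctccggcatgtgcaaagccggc
Actg1: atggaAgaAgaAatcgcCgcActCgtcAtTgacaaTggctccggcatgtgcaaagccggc
Tmsb4x and Tmsb10, the genes of thymosin beta-4 and thymosin beta-10, have 135 coding bases each with 95 identical (70.4%), shown whole with the 40 differing bases in capitals.
Tmsb4x: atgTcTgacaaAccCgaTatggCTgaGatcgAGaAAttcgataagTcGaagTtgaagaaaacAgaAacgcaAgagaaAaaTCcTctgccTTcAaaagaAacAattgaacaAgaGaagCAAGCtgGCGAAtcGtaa
Tmsb10: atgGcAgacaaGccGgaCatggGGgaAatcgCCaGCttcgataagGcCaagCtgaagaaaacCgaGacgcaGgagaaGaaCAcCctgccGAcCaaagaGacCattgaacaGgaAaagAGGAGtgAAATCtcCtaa

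Because these libraries read the 3′ end of a transcript, the last 500 bases were compared with all other annotated transcripts. For Tmsb10, 72.3% of the 50-base words in that stretch also occurred in transcripts of 5 other genes, 3 of them processed pseudogenes, so its UMI counts are uncertain. For Actb 9.31% were shared, with Lrrc58, and the other 8 genes shared none. Cfl1, Coro1a, Lcp1 and Lsp1 overlap a gene on the opposite strand (Snx32, Bola2, Gm15628 and Gm15629, and Prr33). Actg1 overlaps Gm23419 and Mir6935 on its own strand.

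On GRCm38, Actb lies at chr5:142903115-142906754 (minus strand) and Actg1 at chr11:120345690-120348542 (minus). The monomer and severing factors lie at chr11:70651850-70654644 (Pfn1, minus), chr19:5490455-5495201 (Cfl1, plus), chrX:167207093-167209315 (Tmsb4x, minus) and chr6:72957347-72958748 (Tmsb10, minus). The filament genes lie at chr1:74236084-74268209 (Arpc2, plus), chr7:126699773-126707787 (Coro1a, minus), chr14:75131101-75230842 (Lcp1, plus) and chr7:142460809-142494867 (Lsp1, plus). UMIs were summed over each whole gene.

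Actin genes are textbook targets of serum response factor, which binds the CArG box, so the promoters were searched for it. RefSeq promoters (GRCm38.p6, 250 bases before a start) were at hand for 8 of the 10 genes, in 12 entries, and not for Actb and Lsp1. A CArG box (CC, 6 bases of A or T, GG) was found for Actg1 alone, 90 bases before its start, against 1.47% of 32851 promoters. The stretch around it, chr11:120348551-120348610 on the minus strand, is shown with the box in capitals.
Actg1 promoter: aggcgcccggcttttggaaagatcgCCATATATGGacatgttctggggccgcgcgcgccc
The words GAGGAAGT (an ETS-type site) and TGACTCA (an AP-1-type site), searched on both strands, were in 2.44% and 4.46% of promoters and in none of those 12 entries. These are matches of letters only, and Actg1 itself had too few UMIs in these cells to be followed.

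Neutrophils per library numbered 393 at the Tumor 1 border, 171, 331 and 175 on the Tumor 1 arrays, 130 at the Tumor 2 border, and 101, 126 and 250 on the Tumor 2 arrays. They held between 94466 and 1252408 UMIs, with a median of 2263 to 2817 UMIs per cell except on Tumor 2 array 2, where it was 618. S100a9, an alarmin that neutrophils carry in bulk, was at 4525 UMIs per 1000000 (CPM) in the gated cells and 8.58 CPM in C1q macrophages, so the gate held cells with the neutrophil mark. S100a8 ran the same way (1622 against 13.7 CPM). The gate was not clean, however, since 2.54% of Tumor 1 border neutrophils also passed the gate of another class, against 19.3% to 31.6% on the Tumor 1 arrays, 35.4% at the Tumor 2 border and 3.17% to 10.9% on the Tumor 2 arrays. Cells that also passed the C1q macrophage gate supplied 48.9% of the neutrophil UMIs at the Tumor 2 border and none at the Tumor 1 border, against 11.1% to 20.9% and 6.39% to 13.1% on the arrays of Tumors 1 and 2. No doublet caller was run, so the border CPM values of the 8 genes with enough UMIs are given with and without the cells that pass another gate. A level here is a share of a cell class's UMIs, and less of 1 transcript cannot be told apart from more of all others.

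Actb, which encodes beta-actin, was lowest of all libraries at the Tumor 1 border. It stood there at 1422 CPM against 4182, 3726 and 4978 CPM on the 3 Tumor 1 arrays, and at 3765 CPM at the Tumor 2 border against 4288, 4023 and 4464 CPM. Border neutrophils thus held 33.1% of the array mean in Tumor 1 (log2 -1.60) and 88.4% in Tumor 2 (log2 -0.18), below all 3 arrays in both. Without cells that pass another gate the values were 1436 against a mean of 3340 ± 250 CPM (SD, n = 3) in Tumor 1 and 3088 against 4445 ± 445 CPM in Tumor 2, that is log2 -1.22 and -0.53. Actg1, for gamma-actin, was barely seen, with 10 UMIs at the Tumor 1 border, 3, 9 and 2 on its arrays, 1 at the Tumor 2 border and 3, 0 and 20 on its arrays. Those counts do not allow a border comparison.

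**Figure D1:**
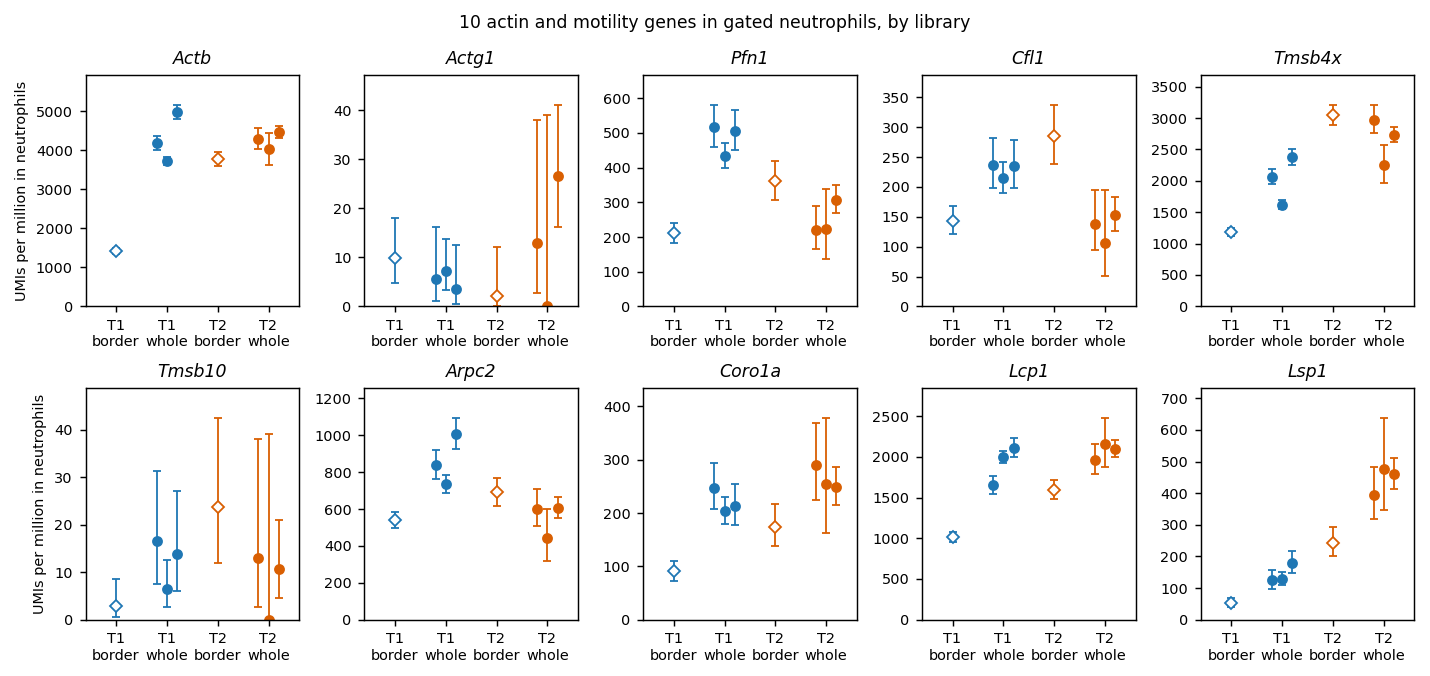
UMIs per 1000000 neutrophil UMIs for each of the 10 genes, by library (diamonds, border libraries; circles, Whole Tumor arrays; T1 and T2, Tumors 1 and 2; bars, 95% exact Poisson intervals, which cover counting error only). Actb sits at 1422 CPM at the Tumor 1 border against 3726 to 4978 CPM on the Tumor 1 arrays, and Lsp1 stands higher on every Tumor 2 array than on any Tumor 1 array.

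Among the monomer-binding genes, Pfn1, Cfl1 and Tmsb4x were below the arrays at the Tumor 1 border and above them at the Tumor 2 border. Pfn1, which encodes profilin 1, was at 211 CPM at the Tumor 1 border against 517, 434 and 506 CPM (43.5% of the mean), and at 360 CPM at the Tumor 2 border against 221, 222 and 307 CPM. Cfl1, the non-muscle cofilin, was at 143 CPM against 237, 215 and 236 CPM in Tumor 1 and at 285 CPM against 138, 106 and 153 CPM in Tumor 2. Tmsb4x, the chief monomer-holding thymosin of blood cells, was at 1182 CPM against 2069, 1615 and 2384 CPM, and at 3049 CPM against 2973, 2255 and 2738 CPM. The upward values at the Tumor 2 border became smaller or were lost without the cells that pass another gate. Pfn1 then lay within the arrays (log2 0.03), Tmsb4x lay below them (log2 -0.65) and Cfl1 stayed above them (log2 0.48), while in Tumor 1 the same 3 genes kept log2 values of -1.23, -0.79 and -0.51. Tmsb10 had only 3 UMIs at the Tumor 1 border and 11 at the Tumor 2 border, against 8 to 9 and 0 to 8 per array.

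Arpc2, a structural subunit of the Arp2/3 complex, was at 539 CPM at the Tumor 1 border against 840, 735 and 1008 CPM, and at 690 CPM at the Tumor 2 border against 601, 445 and 606 CPM. It was thus below all arrays in Tumor 1 (62.6% of the mean) and above all in Tumor 2 (125% of the mean). Without cells that pass another gate it remained below the arrays in Tumor 1 (log2 -0.74) and came to lie within them in Tumor 2 (log2 -0.16).

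The 3 filament-binding genes were below all arrays at both borders, with or without the cells that pass another gate. Coro1a, the leukocyte coronin, was at 90.3 CPM against 248, 204 and 213 CPM in Tumor 1 and at 175 CPM against 290, 254 and 249 CPM in Tumor 2. Lcp1, which encodes the bundling protein L-plastin, was at 1010 CPM against 1656, 1998 and 2110 CPM, and at 1598 CPM against 1964, 2160 and 2098 CPM. Lsp1, whose product binds F-actin in leukocytes, was at 53.0 CPM against 125, 130 and 181 CPM, and at 244 CPM against 394, 476 and 461 CPM. In log2 terms, the border over the array mean was -1.29 and -0.60 for Coro1a, -0.93 and -0.38 for Lcp1, and -1.45 and -0.87 for Lsp1 in Tumors 1 and 2. Without cells that pass another gate these became -1.69 and -0.43, -1.13 and -0.34, and -1.73 and -1.38.

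Over the list, 9 of 10 genes were below all 3 arrays at the Tumor 1 border and 1, Actg1, was above, with a median log2 of -1.06. Among all 6444 genes with at least 50 UMIs, 65.6% were below and 15.1% above, with a median of -0.64. At the Tumor 2 border 4 genes were below, 5 above and 1 within the arrays, with a median of 0.01, against 24.6% below and 50.2% above among 3606 genes and a median of 0.35. Without cells that pass another gate, 8 genes were below in Tumor 1 (median -1.17, against 63.4% below and 11.9% above of all genes and a median of -0.59). In Tumor 2, 5 were then below and 2 above (median -0.25, against 30.2% below and 36.8% above and a median of 0.06). Nothing is read from these counts, as values of this contrast chose the genes.

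**Figure D2:**
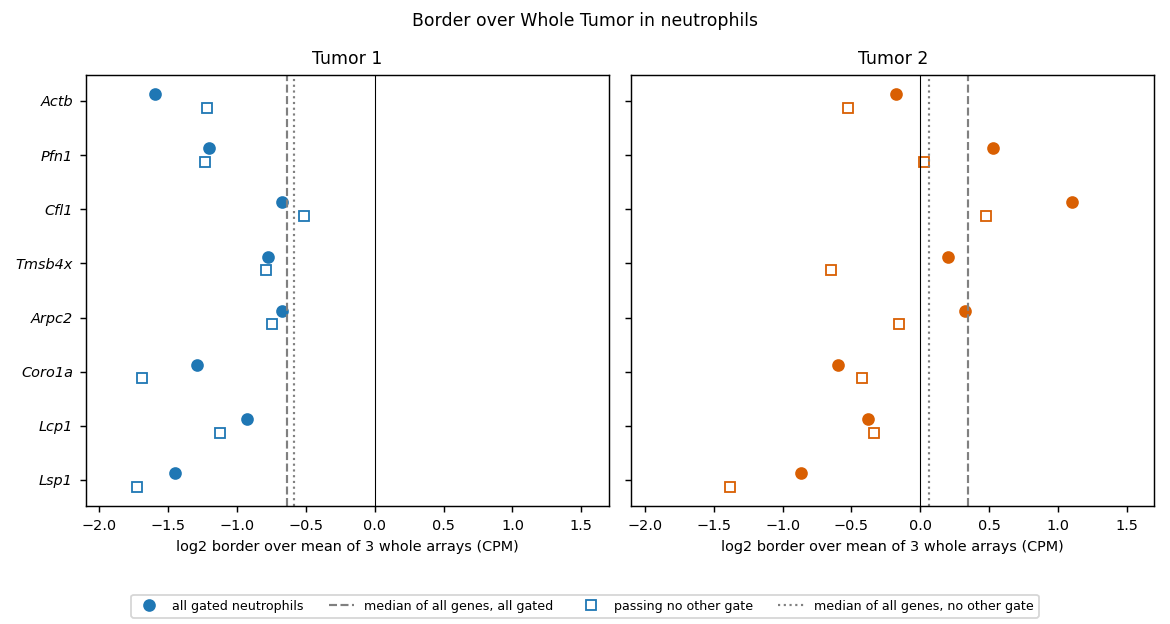
Log2 of the border CPM over the mean CPM of the 3 Whole Tumor arrays in neutrophils, for the 8 genes with enough UMIs (filled, all gated neutrophils; open squares, those passing no other gate; dashed and dotted lines, the median of all genes in the same cells). Actb, Coro1a, Lcp1 and Lsp1 lie left of 0 in both tumors in both sets of cells, while Pfn1, Cfl1, Tmsb4x and Arpc2 lie right of 0 in Tumor 2 when all gated neutrophils are used.

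The trimmed mean of M-values (TMM) scale, which aligns libraries on the bulk of genes, moved the median of all tested genes by 0.58 at the Tumor 1 border and by -0.49 at the Tumor 2 border on the log2 scale. On it, the 10 genes had medians of -0.48 and -0.46, with 7 below all arrays in Tumor 1 (Actb, Pfn1, Cfl1, Tmsb10, Coro1a, Lcp1 and Lsp1) and 4 in Tumor 2 (Actb, Coro1a, Lcp1 and Lsp1). Among all genes 38.9% and 37.1% lay below the arrays on that scale, with medians of -0.05 and -0.12, and nothing is read from the difference. Actb was at log2 -1.01 and -0.64 on that scale, and Lsp1 at -0.87 and -1.32. In cells with at least 500 genes Actb was no longer below all Tumor 2 arrays (log2 -0.09).

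Genes at higher levels in C1q macrophages than in gated neutrophils moved with the borders. C1qa, C1qb and C1qc, the 3 complement genes of the C1q macrophage list, were all at 0 in Tumor 1 border neutrophils, against a summed 0.877 to 1.68 per 10000 UMIs on the arrays, and reached 30.0 per 10000 at the Tumor 2 border against 1.47 to 3.83. Lyz2, a lysozyme gene seen in both classes, was at 1573 CPM in gated neutrophils and 6439 CPM in C1q macrophages of all libraries together. In Tumor 1 border neutrophils it was at 221 CPM against 1238 to 1705 CPM on the arrays. At the Tumor 2 border it was at 5164 CPM against 942 to 1871 CPM. The gate genes themselves summed to 32.8 against 23.1 to 25.1 and to 20.5 against 50.7 to 66.2. The part of these cells and transcripts in the values above was not tested beyond leaving the cells out.

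Counted cell by cell, the 10 genes took a smaller share of the transcripts in Tumor 1 border neutrophils. The median cell there gave them 0.376% of its UMIs, against 0.714%, 0.681% and 0.825% on the arrays of that tumor. At the Tumor 2 border the median was 0.738% against 0.841%, 0.913% and 1.06%. Among cells that pass no other gate the medians were 0.376% against 0.624% to 0.749%, and 0.612% against 0.839% to 1.09%. Among cells with at least 1000 UMIs the Tumor 1 border stayed below its arrays (0.380% against 0.739%, 0.699% and 0.841%), while the Tumor 2 border, at 0.757%, lay among its arrays at 0.924%, 0.684% and 1.08%, the middle value being that of the 19 such cells on array 2. The upper quartile of all gated Tumor 1 border cells, 0.566%, lay below the median of each array of that tumor. Mitochondrial transcripts made up 4.01% of neutrophil UMIs in that library against 5.33% to 6.10% on the arrays, and its 10 most abundant genes held 24.5% against 19.3% to 20.6%. The part of these differences in the lower share was not tested.

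**Figure D3:**
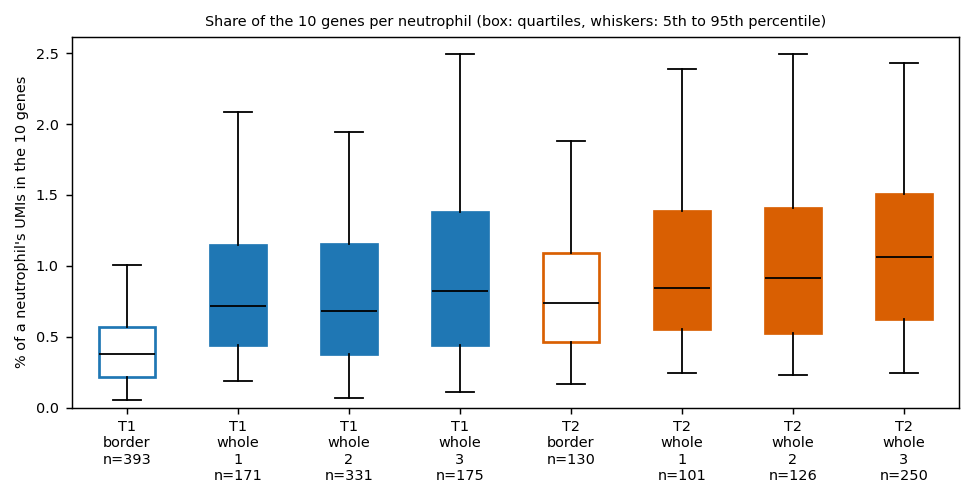
Share of a neutrophil's UMIs that fell in the 10 genes, in percent, by library (boxes, quartiles with the median; whiskers, 5th to 95th percentile; open boxes, border libraries; n, cells). The Tumor 1 border box has a median of 0.376% and an upper quartile of 0.566%, below the median of each array, and cells within a library are not replicates.

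The neutrophils comprised different states in the tumors. An Hdc-type state (Hdc, Retnlg, Asprv1, Mmp8 and Padi4 among its markers) and an Ffar2 Rab15-type state (Ffar2, Ltc4s, Rab15, Entpd3, Xkr5) were assigned by which list had more UMIs. In Hdc-type cells Hdc had 105 to 389 UMIs per Tumor 1 library and 256 to 1799 per Tumor 2 library, while Retnlg had only 4 to 28 and 105 to 624, so cells of this name in the 2 tumors are not shown to be 1 state. The Hdc-type made up 19.6% to 28.6% of neutrophils on the Tumor 1 arrays, 33.1% at the Tumor 1 border, 58.5% at the Tumor 2 border and 88.4% to 91.3% on the Tumor 2 arrays. Among Hdc-type cells alone, 9 genes were below all arrays at the Tumor 1 border, where 51.1% of all genes were, and 7 at the Tumor 2 border (Actb, Pfn1, Tmsb4x, Arpc2, Coro1a, Lcp1 and Lsp1), where 29.7% were. The medians were -0.91 and -0.36, against -0.44 and 0.14 over all genes. Among Ffar2 Rab15-type cells of Tumor 1, 9 genes were below, where 53.8% of all genes were, with a median of -0.91 against -0.42. Tumor 2 arrays held too few such cells for a value, and nothing is read from these counts either.

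The states were set side by side within the Tumor 1 arrays, the only arrays with at least 10 cells of both. Lsp1 was at 84.1, 93.7 and 37.2 CPM in Hdc-type cells against 157, 167 and 327 CPM in Ffar2 Rab15-type cells of the same arrays. Coro1a was at 174, 132 and 99.1 CPM against 318, 262 and 302 CPM. Both were lower in Hdc-type cells on every array, with log2 differences on the TMM scale (fitted with edgeR) of -1.36 ± 0.38 (SE) for Lsp1 and -1.01 ± 0.24 for Coro1a. Actb was at 0.35 ± 0.13 and the other 5 of the 8 genes with enough UMIs lay between -0.24 and -0.06. The median of the 8 was -0.08 against -0.01 over all genes. The border libraries, 1 per tumor, were not in that fit. At the Tumor 2 border (76 and 22 cells) the log2 difference in CPM was -1.12 for Actb, -1.28 for Pfn1, -0.84 for Cfl1 and -1.10 for Tmsb4x. For Arpc2, Coro1a, Lcp1 and Lsp1 it was -1.04, -0.27, 0.55 and -1.88. At the Tumor 1 border (130 and 157 cells) Actb was at -0.01, Coro1a at -0.95, Lsp1 at -0.91 and the other 5 between -0.87 and -0.12.

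The Whole Tumor arrays of the mice, which differed in sex, were then set side by side. Lsp1 stood at 394, 476 and 461 CPM on the Tumor 2 arrays against 125, 130 and 181 CPM on the Tumor 1 arrays, a log2 difference of 2.32 ± 0.22 (SE) on the TMM scale. Actg1 was at 2.40 ± 0.72, but 20 of its 23 UMIs in Tumor 2 came from array 3. Tmsb4x was at 1.10 ± 0.20 and Coro1a at 0.97 ± 0.22. Lcp1 followed with 0.80 ± 0.18 and Actb with 0.69 ± 0.18. Pfn1, Cfl1, Arpc2 and Tmsb10 were at -0.18 ± 0.22, 0.02 ± 0.23, 0.10 ± 0.21 and 0.54 ± 0.74. The median of the 10 was 0.74 against -0.19 over all genes.

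All of this is relative to the TMM scale, which lifted the median of all genes by 0.73 over the scale of library totals (-0.93 there). On library totals Lsp1 came to 1.60, Tmsb4x to 0.39, Coro1a to 0.24 and Lcp1 to 0.10, while Actb came to -0.02 and Pfn1, Cfl1 and Arpc2 to -0.91, -0.71 and -0.62. The sparse Actg1 and Tmsb10 came to 1.67 and -0.20. Without cells that pass another gate Actb was at 1.13 on the TMM scale and 0.38 on library totals. The median of the 10 on library totals, with all gated cells, was 0.04. In Hdc-type cells alone, whose markers differed between the tumors, on the TMM scale, Lsp1 was at 3.34 ± 0.31 and Coro1a at 1.67 ± 0.29, and Tmsb4x, Lcp1 and Actb at 1.05, 0.86 and 0.64. Lsp1 kept a positive difference in each alternative tried.

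**Figure D4:**
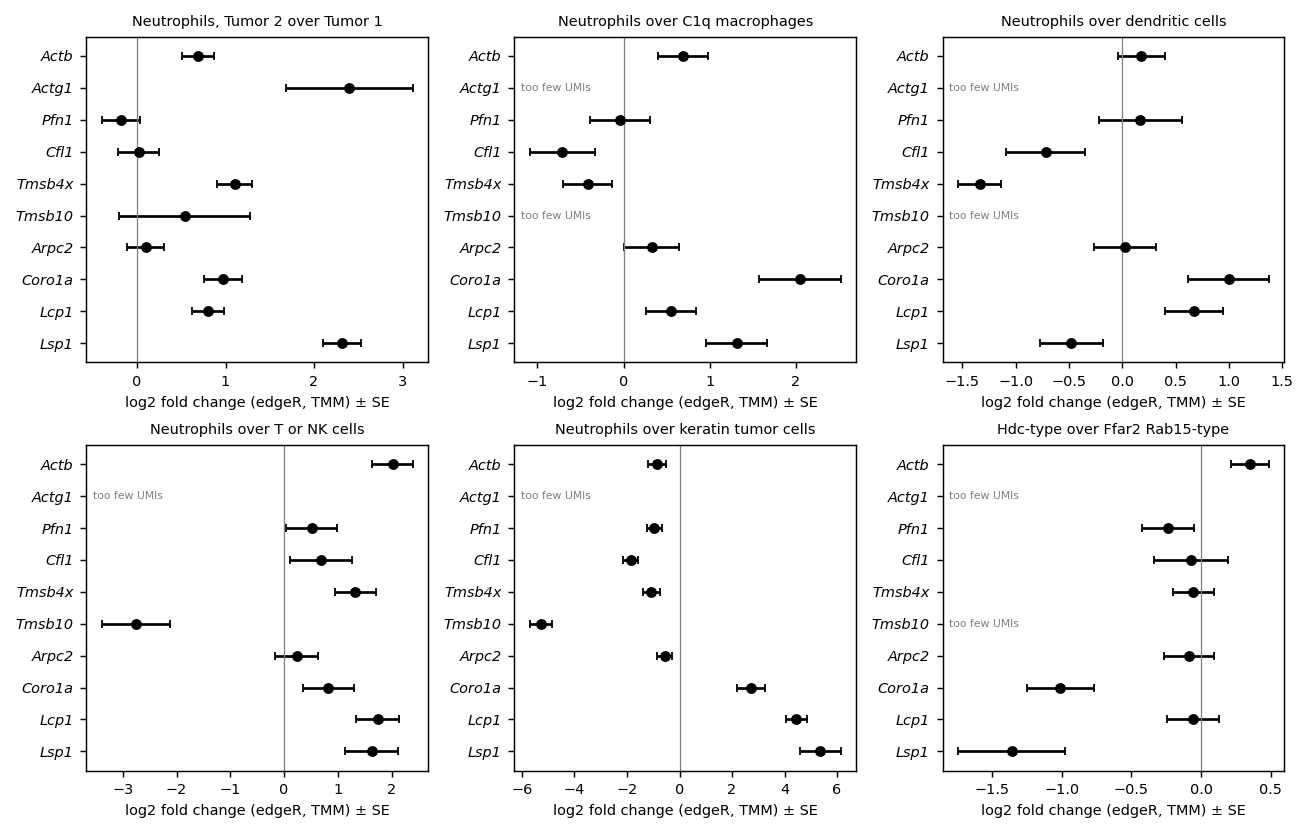
Log2 fold change (edgeR fit, TMM scale) for the 10 genes in 6 comparisons of summed UMI counts on Whole Tumor arrays (points, fitted values; bars, SE, which reflects the spread between arrays only; no test is drawn). Lsp1 is at 2.32 between the tumors and 5.36 over keratin tumor cells, and Tmsb10 is at -5.28 over keratin tumor cells.

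The genes were also set beside their levels in other classes of the same arrays. Keratin tumor cells (Krt7, Krt8, Krt18, Krt19 or Epcam) numbered 44, 44 and 25 on the Tumor 1 arrays. Tmsb10 was at 249.8, 399.5 and 405 CPM in them against 16.5, 6.39 and 13.8 CPM in neutrophils of the same arrays, a log2 difference of -5.28 ± 0.41 (SE, TMM scale), with the limit on its counts given above. Lcp1 was at 104, 52.4 and 49.4 CPM in tumor cells, below neutrophils by a log2 of 4.45 ± 0.40. Lsp1 had 1 UMI in tumor cells of these arrays against 336 in neutrophils, a ratio of 56.2 with a 95% exact counting interval of 10.0 to 2227 (fitted log2 5.36, a value that depends on the prior count).

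Coro1a had 11 UMIs in tumor cells and was higher in neutrophils by 2.72 ± 0.52. Cfl1 was at 576, 635 and 761 CPM in tumor cells, with a neutrophil difference of -1.85 ± 0.29. Tmsb4x (-1.07 ± 0.32), Pfn1 (-0.95 ± 0.29), Actb (-0.85 ± 0.33) and Arpc2 (-0.57 ± 0.30) lay on the same side. Actg1 had 1 UMI in tumor cells beside 2395 for Actb. The median of 9 genes was -0.85 against 0.17 over all genes, and no gene changed side on library totals.

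Among other immune cells, C1q macrophages (Tumor 2 arrays, 18, 20 and 27 cells) held less Coro1a and Lsp1 on the arrays, though not at the Tumor 2 border. Coro1a was at 127, 88.9 and 20.0 CPM in the macrophages against 290, 254 and 249 CPM in neutrophils, a log2 difference of 2.05 ± 0.48. Lsp1 was at 183, 88.9 and 213 CPM against 394, 476 and 461 CPM, a difference of 1.31 ± 0.36. Actb was at 0.69 ± 0.29 and Cfl1 at -0.71 ± 0.38, and the median of 8 genes was 0.44 against 0.06 over all genes. At the Tumor 2 border, where C1q macrophages were most numerous (68 cells), they held Lsp1 at 335 against 244 CPM in neutrophils, Coro1a at 189 against 175 CPM and Actb at 4847 against 3765 CPM, beside the 48.9% of neutrophil UMIs there that came from cells also passing the C1q gate.

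T or NK cells were counted on Tumor 2 arrays 1 and 3 (16 and 22 cells), which leaves 1 residual degree of freedom. Actb was at 1999 and 1409 CPM in them, and neutrophils stood above by 2.02 ± 0.37. Lcp1, Lsp1 and Tmsb4x differed by 1.74 ± 0.40, 1.63 ± 0.50 and 1.33 ± 0.37. Tmsb10, with 12 UMIs in T or NK cells and 11 in neutrophils, was at -2.76 ± 0.63. The median of 9 genes was 0.82 against 0.15 over all genes, and 0.10 against -0.57 on library totals, where Actb was at 1.29 and Arpc2, Cfl1 and Pfn1 turned to -0.49, -0.03 and -0.21.

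Dendritic cells, which use actin to carry antigen to lymph nodes, held more Tmsb4x than neutrophils. Their levels were 8793, 6341 and 8134 CPM against 2973, 2255 and 2738 CPM on the Tumor 2 arrays, a log2 difference of -1.34 ± 0.20. Coro1a was at 1.00 ± 0.38, Lcp1 at 0.67 ± 0.27, Lsp1 at -0.48 ± 0.30 and Cfl1 at -0.72 ± 0.37. The median of 8 genes was 0.10 against 0.11 over all genes, and -0.22 against -0.19 on library totals, where Actb, Arpc2 and Pfn1 turned to -0.15, -0.29 and -0.13.

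B cells reached 10 cells on 1 array only (Tumor 2 array 3, 25 cells), so no difference was fitted. They held Actb at 1494 CPM against 4464 CPM in neutrophils of that array, Lcp1 at 609 against 2098, Lsp1 at 166 against 461 and Coro1a at 239.7 against 249 CPM. Few other classes reached 10 cells at a border. At the Tumor 2 border 35 dendritic cells held Tmsb4x at 5000 against 3049 CPM in neutrophils and Lsp1 at 455 against 244 CPM, and 14 T or NK cells held Actb at 2084 against 3765 CPM and Lcp1 at 685 against 1598 CPM. In 11 B cells there Coro1a was at 335 against 175 CPM in neutrophils. Actb was at 2346 against 3765 CPM, Lcp1 at 279 against 1598 CPM and Lsp1 at 55.9 against 244 CPM. At the Tumor 1 border 11 keratin tumor cells held Actb at 5453 against 1422 CPM and Lcp1 at 296 against 1010 CPM. The comparisons with dendritic cells and keratin tumor cells were added after class sizes had been seen.

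**Figure D5:**
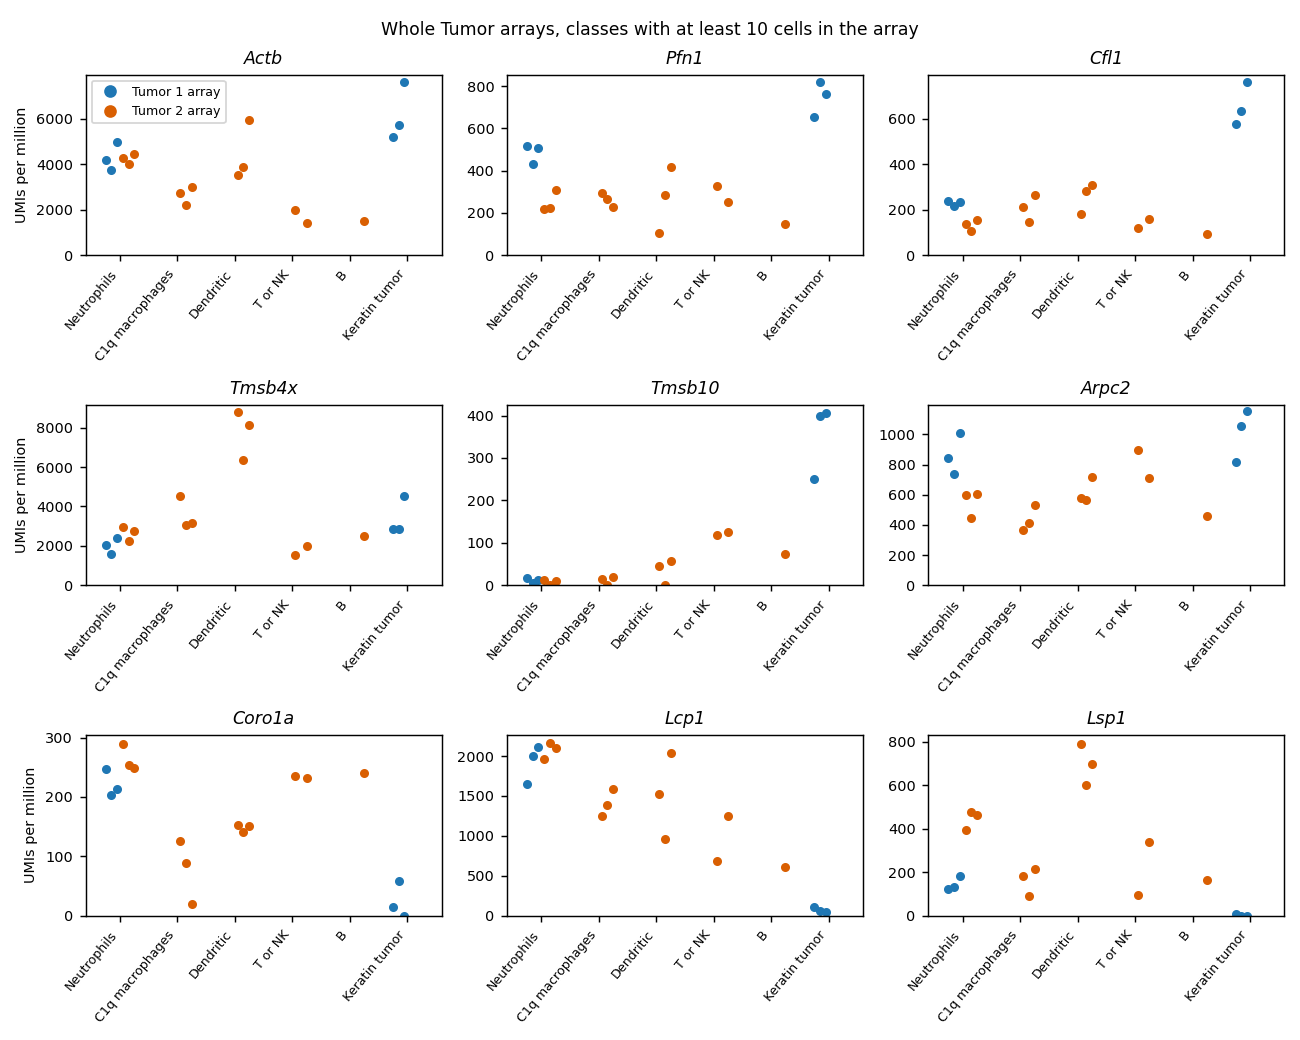
UMIs per 1000000 of a class's UMIs for 9 of the genes on Whole Tumor arrays, by class (a point is 1 array with at least 10 cells of the class; blue, Tumor 1; orange, Tumor 2). Of the classes shown, Lcp1 and Lsp1 are lowest in keratin tumor cells, Tmsb10 is highest there (249.8 to 405 CPM), and Tmsb4x is highest in dendritic cells (6341 to 8793 CPM).

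Over the 8 neutrophil libraries the genes did not move as 1 block. Pearson correlations of log2(CPM + 10) between pairs ran from -0.35 to 0.919 with a median of 0.231 over 45 pairs, given as a description over 8 libraries that share tumors and depth. Actb went with Lcp1 (0.919) and Coro1a (0.911), and Lsp1 with Tmsb4x (0.826). Pfn1 went with Arpc2 (0.906) and Cfl1 (0.839), and Cfl1 was least like Lsp1 (-0.35). The 8 libraries include the borders, so the split repeats the border values of all gated neutrophils. There the first genes were low at both borders, apart from Tmsb4x, and the others were high at the Tumor 2 border. Without cells that pass another gate, Cfl1 stayed above the Tumor 2 arrays (log2 0.48), while Pfn1 (0.03) and Arpc2 (-0.16) lay within them.

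Of 2059 genes with at least 400 UMIs, those most like the mean of the 10 were Emb (r = 0.965), Trps1 (0.961), D8Ertd738e (0.958), Macf1 (0.951) and Eif4g3 (0.936) over 8 libraries. Macf1 encodes a protein that links actin with microtubules and Emb the membrane protein embigin. Emb was at 41.2 CPM at the Tumor 1 border, 191, 207 and 241 CPM on its arrays, 203 CPM at the Tumor 2 border and 264, 169 and 266 CPM on its arrays.

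The wider actin machinery was followed in a list of 95 other genes, 94 of them in the tables and up to 92 tested. Between the tumors, 31 were higher and 10 lower in Tumor 2 neutrophils by the quasi-likelihood F test of edgeR (Benjamini-Hochberg, all genes; median 0.29 against -0.19 for all genes). Of all 7688 genes 33.8% were called, 19% higher and 14.8% lower, and on library totals 14 were higher and 38 lower, where of all genes 10.1% were higher and 47.8% lower. Itgal, the alpha chain of the integrin LFA-1, was at 277, 318 and 307 CPM against 25.7, 22.4 and 24.1 CPM, a log2 difference of 4.35 ± 0.26 (edgeR adjusted p = 2.22e-14). Fmnl1, a leukocyte formin, was higher by 3.27 ± 0.23 and Dock2, an activator of Rac, by 2.26 ± 0.24. Capg, a capping protein, was at 26.0, 42.3 and 77.1 CPM against 290, 264 and 329 CPM, lower by -1.61 ± 0.28 (edgeR adjusted p = 3.55e-05). Cttn (cortactin) and Cfl2 (muscle cofilin) passed narrowly at -2.24 ± 0.86 (edgeR adjusted p = 0.0427) and -1.87 ± 0.67 (edgeR adjusted p = 0.03), with 0 to 6.65 CPM on the Tumor 2 arrays and at most 32.7 CPM on those of Tumor 1. Cttn did not pass when any 1 of the 6 arrays was left out (edgeR adjusted p = 0.0577 to 0.136). Cfl2 did not pass without Tumor 1 array 3 (0.0646) or Tumor 2 array 1 (0.0905) or array 2 (0.0513) by edgeR adjusted p, and DESeq2 called neither (0.108 and 0.0771).

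At the Tumor 1 border 11 of 92 list genes were higher and 8 lower than on the arrays, where 16.4% of all genes were called, 9.86% higher and 6.5% lower (median -0.07 against -0.11). The lone border library of a tumor was taken to vary as the arrays do, so each SE and p here comes from the spread between arrays. Marcksl1, which binds actin at the membrane, was at 688 CPM against 224, 220 and 260 CPM, higher by 2.13 ± 0.27 (edgeR adjusted p = 5.91e-07). Fmnl1 and Itgal were higher by 1.63 ± 0.29 and 1.53 ± 0.36. In Ffar2 Rab15-type cells alone, the commoner state in Tumor 1, Marcksl1 passed at 1.62 (edgeR adjusted p = 0.0014), while Fmnl1 was at 1.02 and Itgal at 0.75 without passing (edgeR adjusted p = 0.155 and 0.538). Marcksl1, Fmnl1 and Itgal passed at 1.72, 1.60 and 1.19 without cells that pass another gate. Pls3, the plastin of solid tissues, was at 2.95 CPM against 38.5, 23.2 and 43.0 CPM, lower by -2.86 ± 0.81 (edgeR adjusted p = 0.0128, DESeq2 adjusted p = 0.0865), and the cofilin phosphatase gene Ssh2 by -1.41 ± 0.33, and neither passed in Ffar2 Rab15-type cells alone (-1.94 and -0.95, edgeR adjusted p = 0.597 and 0.146). In Hdc-type cells alone Pls3 and Ssh2 passed, at -6.41 and -1.86. Ssh2 passed at -1.17 without cells that pass another gate, where Pls3 was too low to be tested. The kindlin gene Fermt3 passed at -1.35 ± 0.42 (edgeR adjusted p = 0.0233), but was at -0.04 (edgeR adjusted p = 0.977) without cells that pass another gate and at -1.09 (0.0827) without Tumor 1 array 3. On library totals the split was 6 higher and 32 lower, against 4.34% and 23.9% of all genes, and without cells that pass another gate 8 and 2, against 7.03% and 1.43%.

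At the Tumor 2 border 1 list gene was higher and 14 lower, where 11.6% of genes were called, 4.15% higher and 7.45% lower (median -0.30 against 0.11). Capg was the higher one, at 201 CPM against 26.0, 42.3 and 77.1 CPM (1.30 ± 0.37, edgeR adjusted p = 0.0173), and it did not pass without Tumor 2 array 1 (edgeR adjusted p = 0.0609) or without cells that pass another gate (0.0535). Itgal was at 62.5 CPM against 277, 318 and 307 CPM, lower by -2.72 ± 0.37 (edgeR adjusted p = 7.5e-06). Zyx, the focal adhesion protein zyxin, and Fmnl1 were lower by -1.99 ± 0.34 and -1.99 ± 0.33. Itgal, Zyx and Fmnl1 passed at -1.45, -1.55 and -1.45 without cells that pass another gate, and at -2.22, -1.84 and -1.40 in Hdc-type cells alone. In those cells the list gave 1 higher and 5 lower, where of all genes 1.23% and 2.54% were, and in cells with at least 500 genes 0 and 5, against 2.7% and 3.47%. On library totals 12 were higher and 8 lower, against 14.9% and 3.97% of all genes, and without cells that pass another gate 1 and 9, against 2.6% and 2.94%.

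The border change differed between the tumors for 21 of 92 list genes by the interaction test, 3 higher and 18 lower in Tumor 2, where 21.7% of all genes passed, 9.9% higher and 11.8% lower. Itgal (-4.25 ± 0.51), Fmnl1 (-3.62 ± 0.44) and Marcksl1 (-3.26 ± 0.43) led the lower side, being called higher at the Tumor 1 border and lower at the Tumor 2 border (Marcksl1 there by -1.13 ± 0.32, edgeR adjusted p = 0.0192, and by -0.24 without cells that pass another gate, edgeR adjusted p = 0.747). Pls3 (3.28 ± 1.16), Fermt3 (2.13 ± 0.61) and Cyfip1, a WAVE complex subunit (1.80 ± 0.52), led the other. On library totals with cells that pass another gate also left out, a setting chosen after seeing the data, Itgal was called at neither border. Its log2 values were then 0.63 in Tumor 1 and -1.17 in Tumor 2. Marcksl1 came to -1.13 in the difference there, without passing. Without cells that pass another gate Fermt3 turned to -0.40 and Cyfip1 came to 0.28 (edgeR adjusted p = 0.849 and 0.88), and Pls3 did not pass without Tumor 1 array 1 (0.0569) or array 3 (0.069) or Tumor 2 array 1 (0.0533) or array 2 (0.0502). On library totals the split turned to 39 higher and 9 lower, and all genes shifted the same way, to 33% higher and 4.8% lower. Leaving out cells that pass another gate gave 0 and 12, against 2.28% and 5.6% of all genes.

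Against other classes the list gave 19 higher and 5 lower of 67 over C1q macrophages, 20 and 1 of 69 over T or NK cells, 21 and 10 of 69 over dendritic cells and 32 and 18 of 84 over keratin tumor cells. Of all genes 51.8% were called over C1q macrophages (26.4% higher and 25.4% lower of 1929), 45.4% over T or NK cells (25.8% and 19.6% of 2684), 56.4% over dendritic cells (30.8% and 25.6% of 1927) and 48.6% over keratin tumor cells (26.1% and 22.5% of 5527). Medians of the list were 0.24, 0.80, 0.19 and 0.39, against 0.06, 0.15, 0.11 and 0.17 over all genes. On library totals the splits were 18 and 5, 12 and 5, 16 and 13, and 41 and 12, with medians of 0.17, 0.09, -0.14 and 0.71. All genes were then called higher and lower at 24.4% and 25.5%, 17.1% and 30.1%, 24.5% and 31.8%, and 33.7% and 17.2%. With cells that pass another gate left out, the split over keratin tumor cells was 28 and 22 with a median of -0.02, against 28.2% and 28.5% of all genes. Ezr, for the membrane linker ezrin, was at 1024 CPM in neutrophils over the Tumor 2 arrays and 157 CPM in C1q macrophages (2.88 ± 0.39). Zyx (2.57 ± 0.44) and Marcksl1 (2.52 ± 0.43) were higher too, and Cyfip1, Myo1g and Itgb1 lower (-2.24, -1.65 and -1.50), of which Myo1g did not pass without Tumor 2 array 1 or array 2 (edgeR adjusted p = 0.0761 and 0.0526). Over T or NK cells, Zyx was higher by 3.98 ± 0.57, Marcks and Marcksl1 were higher from 1 and 2 UMIs in those cells (ratios of 79.0 and 19.8, with 95% counting intervals of 14.1 to 3125 and 5.43 to 164), and Rdx was lower (-1.40 ± 0.55, edgeR adjusted p = 0.0385, against 0.0526 without cells of shared barcodes). Between the neutrophil states 1 of 79 list genes was called, where 1.4% of 4225 genes were (1.11% higher and 0.284% lower in the Hdc-type). It was Vav1, an activator of Rac, at -0.94 ± 0.19 (edgeR adjusted p = 0.0415), which did not pass without Tumor 1 array 2 (0.0738) or array 3 (0.241) or without cells that pass another gate (0.214).

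Fscn1, for the bundling protein fascin of dendritic cells, had 79 UMIs in dendritic cells and 3 in neutrophils of the same arrays, a ratio of 0.00822 with a 95% counting interval of 0.00166 to 0.0249. Myo1g and Mkl1 were also lower than in dendritic cells (-3.47 ± 0.39 and -3.19 ± 0.48), and Itgam, Lasp1 and Myo1f higher (3.33, 3.03 and 2.82). Arhgdib, the integrin activator gene Fermt3 and the Arp2/3 activator gene Was had no UMI in keratin tumor cells and were at least 23.8-fold, 17.0-fold and 12.3-fold higher in neutrophils, taking 3 UMIs over the class as the floor. Cttn, Dstn and Pls3 were lower than in keratin tumor cells (-4.13 ± 0.36, -3.07 ± 0.30 and -3.02 ± 0.35).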

How the data were processed

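Single-cell transcriptomes of 2 KP lung tumors were analysed from 8 deposited tables of raw UMI counts per gene and cell, 1 Healthy/Tumor Border library and 3 Whole Tumor arrays per tumor. The authors demultiplexed reads with bcl2fastq 2.17.1.14, aligned them to mm10 with STAR 2.5.2b under the Drop-seq computational protocol and merged UMIs. The annotation and the use of strand in counting are not given in the sources used here. Cell names inside the tables carry the other tumor's number; the sample labels were followed, and barcodes per labelled tumor and region equal the cell numbers the study states. Of 4343 barcodes, 3894 with at least 200 genes were kept; 10 barcodes occurred in more than 1 library. Total UMIs per library were 405627 to 2029200.

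The genes and lists were chosen with earlier results of these data known. Since UMIs of these classes and libraries chose the 10 genes, their fitted differences are given without a test, and p-values only for the list of other actin genes. UMIs were summed per class and library and scaled to 1000000 (CPM). Tests used edgeR 4.0.16 (filterByExpr, TMM, quasi-likelihood F test, Benjamini-Hochberg over all genes tested, threshold 0.05) in R 4.3.3, with 1 mean per tumor and region over 8 libraries, and with library as a block between classes having at least 10 cells each. The lone border library was assumed to vary as the arrays do. Other-gate cells are neutrophils that also pass 1 of 9 further marker gates, the C1q and keratin gates among them (at least 2 UMIs). All 10 genes were named in each comparison, with the 3 list genes of largest change each way and the 5 genes most like the mean. Alternatives were DESeq2 1.42.0, library totals, no filter, other cell and gate minimums, leaving out cells or arrays, and an array-number block. Some genes, and results that need them, are not reported here. The edgeR script was tested on simulated counts. Sequences were read from the GENCODE vM21 and RefSeq references, and Python 3.11.15 with matplotlib 3.10.9 drew the plots.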

Additional observations from a re-analysis of the deposited data

Results flagged for a closer look

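The change from Whole Tumor to border differed between the tumors, by the edgeR interaction test itself, for 21 of 92 other actin genes, where 21.7% of all genes passed. The split was 3 higher and 18 lower in Tumor 2, and on library totals it turned to 39 higher and 9 lower, where all genes shifted the same way, from 9.9% higher and 11.8% lower to 33% and 4.8%. Of those named by rule, Itgal (-4.253), Fmnl1 (-3.618) and Marcksl1 (-3.264) were called higher at the Tumor 1 border and lower at the Tumor 2 border, Marcksl1 in Tumor 2 neither without other-gate cells nor on library totals, and the values are log2 differences, Tumor 2 minus Tumor 1. On library totals with other-gate cells also left out (chosen after seeing the data), Itgal was called at neither border. Its values were then 0.63 in Tumor 1 and -1.17 in Tumor 2, and Marcksl1 was not called in the difference (-1.13). In the main fit Pls3 (3.28), Fermt3 (2.127) and Cyfip1 (1.801) differed in the other direction, higher in Tumor 2. Each rests on 1 border library per tumor, so these calls set a single sorted sample against the spread between repeat arrays, and 35.4% of the Tumor 2 border neutrophils against 2.54% of the Tumor 1 border neutrophils also passed another gate. Leaving those cells out gave 12 genes, all lower, where 2.28% of all genes were higher and 5.6% lower. Fermt3 and Cyfip1 were then no longer called and Pls3 was too low to be tested, and the part of the remaining cells was not tested.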

How the results depend on the processing

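Counts of list genes called and medians of the 10 genes were recomputed under each alternative. Of these values 173 stayed within 1.5 times in total (counts), or within 1 SD or the median SE (medians), 26 moved further and 11 medians turned sign. A total does not hold the split: on library totals in place of TMM, list genes between the tumors went from 31 higher and 10 lower to 14 and 38 (all genes, 1463 and 1134 to 774 and 3677), and at the Tumor 2 border from 1 and 14 to 12 and 8 (all genes, 319 and 573 to 1142 and 305). Among single genes 1037 values stayed within 1 SE (the 10 genes) or on their side of the threshold (list genes). Of the others, 90 of the 10 genes moved further, 56 of the list lost their call and 8 were counted as turned in sign. That count of 8 leaves out some values that began within 1 SE of 0, such as Arpc2 between the tumors (0.10 ± 0.21, and -0.62 on library totals). The causes of these shifts were not tested.

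On library totals list genes called came to 38 at the Tumor 1 border and 48 in the difference between borders, Actb between the tumors came to -0.0225, Cfl1 and Pfn1 over T or NK cells came to -0.03145 and -0.209, and the median of the 10 genes came to 0.0368 between the tumors, 0.103 over T or NK cells and -0.222 over dendritic cells. With library totals and other-gate cells left out together (chosen after seeing the data), Coro1a, Lcp1 and the median between the tumors came to -0.102, -0.0746 and -0.0882. List genes called at the Tumor 2 border then came to 8, against 283 higher and 94 lower of all 5888 genes. With other-gate cells left out, list genes called were 10 at the Tumor 1 border, 12 in the difference between borders and 2 between the states, and Fermt3 in the difference came to -0.402. All genes called were then 414 higher and 84 lower, and 134 and 330, of 5888, and 65 and 4 of 2986. In cells with at least 500 genes list genes called were 12, 5 and 11 at the borders and in their difference, 3 between the states and 15 over C1q macrophages. All genes called were 542 higher and 501 lower, 210 and 270, and 683 and 642 of 7771, then 66 and 23 of 4186, and 349 and 289 of 1752. The median of the 10 genes over dendritic cells was -0.225 in those cells. With no filter on low counts list genes called were 9 at the Tumor 2 border and 7 between the states. All genes called were 252 higher and 324 lower of 21460, and 141 and 72 of 15710. Medians of the 10 genes over C1q macrophages, T or NK, dendritic and keratin tumor cells were then 1.125, 1.548, 0.726 and -0.184, with Tmsb4x over C1q macrophages at 0.270 and Lsp1 over dendritic cells at 0.154. List genes called were 3 at the Tumor 1 border in Ffar2 Rab15-type cells alone, against 232 higher and 95 lower of all 5987 genes. At the Tumor 2 border in Hdc-type cells alone 6 were called, against 59 and 122 of 4805.

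The median of the 10 genes at the border was -0.479 in Tumor 1 on the TMM scale. In Tumor 2 it turned from 0.01 to -0.458 on the TMM scale, -0.0687 with a gate of at least 3 UMIs, -0.248 without other-gate cells, -0.362 in Hdc-type cells and -0.341 in Hdc-type cells passing no other gate (the last chosen after seeing the data). With the gate of at least 3 UMIs the median over dendritic cells was -0.00182. Leaving out each array in turn gave -0.0613 (without Tumor 2 array 2) to 0.0579 for the Tumor 2 border median, -1.095 to -1.013 in Tumor 1, and -0.143 (without Tumor 2 array 1) to 0.284 over dendritic cells. List genes called were then 0 (without Tumor 1 array 3) to 13 (without array 1) between the states, 14 (without Tumor 2 array 3) to 25 (without array 2) over C1q macrophages and 32 to 38 between the tumors. All genes called between the states were 2 higher and 0 lower of 4335, and 191 and 85 of 4448. Over C1q macrophages they were 353 and 349 of 1429, and 617 and 515 of 2943. Between the tumors they were 1272 and 926 of 7472 (without Tumor 1 array 3), and 1305 and 983 of 7705 (without array 1).

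With the array number as a replicate block, 42 list genes (33 higher, 9 lower of 89) were called between the tumors. Of all 5983 genes tested with the block, 1226 were higher and 786 lower. Deviations of same-numbered arrays correlated at -0.0396, 0.0873 and 0.0404 over 1516 genes, so the arrays share only a number. The block could not be fitted to the border contrasts, which have 1 library each. The state and class comparisons rest on arrays of 1 tumor, so leaving out the other tumor changed nothing, leaving out an array was not possible for T or NK cells, and B cells could not be fitted. Leaving out the 56 cells with shared barcodes moved no count beyond 1.5 times. Depth limits Actg1 and Tmsb10 most, at 0 to 20 and 0 to 11 UMIs per neutrophil library.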
